A study of Homo sapiens with 6 samples.

Results

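The regions described here are broad stretches of H3K27 acetylation in which RUNX1 was not detected. They are the H3K27ac regions of DMSO-treated ME-1 cells that were at least 2000 bp and under 5000 bp wide and had no RUNX1 peak of either condition within 1 kb. Of 67087 H3K27ac regions in DMSO, 7961 had this width, and 4481 of those (56.3%) lacked RUNX1. A further 3413 regions of the same width overlapped a RUNX1 peak and served as the reference, and the remaining 67 had RUNX1 within 1 kb but outside the region. The RUNX1 lists held 1701 peaks in DMSO and 10319 with AI-10-49. Of the 3413 reference regions, 505 overlapped a RUNX1 peak of DMSO and 2908 overlapped one of AI-10-49 only. The reference therefore rests mostly on RUNX1 called after treatment. The regions were selected on their DMSO width and on the RUNX1 peak positions, so these 2 properties are given as a description only.

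ME-1 cells are an established line of human leukemia with inv(16), an inversion of chromosome 16 that makes the fusion protein CBFβ-SMMHC. All libraries came from this 1 line, kept for 6 h with AI-10-49 at 1 µM, a small molecule that inhibits binding of the fusion protein to RUNX1, or with DMSO as the control. H3K27ac and RUNX1 were each profiled by chromatin immunoprecipitation and sequencing, with 1 library for each antibody and condition. The comparison asks what became of acetylated regions away from RUNX1 when the inhibitor was added.

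H3K27ac is the acetylation of lysine 27 on histone H3, placed by the acetyltransferases p300 and CBP and removed by histone deacetylases. It marks active promoters and enhancers, and wide stretches of it span several nucleosomes around a nucleosome-depleted centre where transcription factors and RNA polymerase bind. RUNX1 is a transcription factor of blood cell development that recruits such acetyltransferases, and in inv(16) leukemia the fusion protein binds it in place of its normal partner CBFβ.

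Each condition had 1 library, so there is no replicate spread to judge a difference by and no test was made. Intervals are 95% intervals throughout. Those on shares (exact Clopper-Pearson) and on medians (exact order statistics) cover the sampling of regions, which share 1 library and are not replicates of a condition. Those on fragment numbers (exact Poisson) cover counting error only. The H3K27ac libraries held an estimated 35.7 M reads in DMSO (M for mega) and 37.0 M with AI-10-49, and their inputs 34.0 M and 27.6 M. The AI-10-49 list therefore rested on a shallower input, and its fragments were 1.09 times as long (210 and 192 bp, from the shortest peak). The part of either in the results below was not tested.

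In DMSO the broad regions without RUNX1 were prominent but lower than those with RUNX1. Their median width was 2569 bp (quartiles 2238 and 3165), and their summit was covered by a median of 122 fragments (quartiles 77 and 179). Expressed per M reads, this summit level was 3.42 (quartiles 2.16 and 5.02), against 0.813 over all 67087 regions. The authors' fold enrichment at the summit, a value of each peak within its own list, had a median of 16.0. Broad regions with RUNX1 had a median width of 2834 bp, a summit of 5.04 fragments per M reads and a fold enrichment of 19.5. The classes thus differed in height already in DMSO, and later comparisons are also given within classes of height.

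Nearly all of these regions still met an acetylated region after AI-10-49. Only 17 of 4481 (0.379%, 0.221 to 0.607) overlapped no H3K27ac region of the AI-10-49 list, where 29.0% of all DMSO regions overlapped none. Among broad regions with RUNX1, 2 of 3413 (0.0586%, 0.00710 to 0.212) overlapped none. Narrower regions without RUNX1, of 1000 bp and more and under 2000 bp, were without an AI-10-49 region in 3.67% of cases, and the 305 wider ones (5000 bp and more) in 0. With only AI-10-49 regions of a −log10 q of 5 or more counted, the share without one rose to 1.52% for the broad regions without RUNX1.

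A frequent change was that a continuous DMSO region was overlapped by several AI-10-49 regions, mostly 2. After AI-10-49, 1986 of the 4481 regions (44.3%, 42.9 to 45.8) were overlapped by 2 or more H3K27ac regions, against 13.2% of all DMSO regions. All DMSO regions had a median width of 551 bp, which leaves less room for 2 pieces. This contrast therefore partly follows the choice by width. The share was 26.9% in DMSO regions of 1000 bp and more and under 2000 bp, and 61.7% in those of 5000 bp and more. Among broad regions with RUNX1, 1241 of 3413 (36.4%, 34.7 to 38.0) were overlapped by 2 or more. This is 7.96 percentage points (5.76 to 10.1) below the share in broad regions without RUNX1. Of the regions without RUNX1, 1408 lay under 2 pieces, 463 under 3, 97 under 4, 15 under 5 and 3 under 6. Shares with 3 or more pieces were 12.9% (11.9 to 13.9) without RUNX1 and 7.27% (6.42 to 8.19) with it.

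The other regions stayed whole, and most of these kept about their DMSO width. A total of 2478 (55.3%) lay under 1 AI-10-49 region, and for 1754 the narrower of the DMSO and AI-10-49 widths was at least 0.8 times the wider (39.1% of all 4481, 37.7 to 40.6). Broad regions with RUNX1 were in this class more often (49.5%, 47.9 to 51.2). A narrower AI-10-49 region of 0.5 to 0.8 times the width covered 319 regions without RUNX1 (7.12%, against 4.78% with it), and one under 0.5 times the width covered 107 (2.39%, against 0.967%). An AI-10-49 region so much wider that the DMSO width was under 0.8 times its own lay over 298 (6.65%, against 8.29%). Of the 2478, 1784 were still within the width limits in AI-10-49, 579 were under 2000 bp and 115 reached 5000 bp or more.

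**Figure D1:**
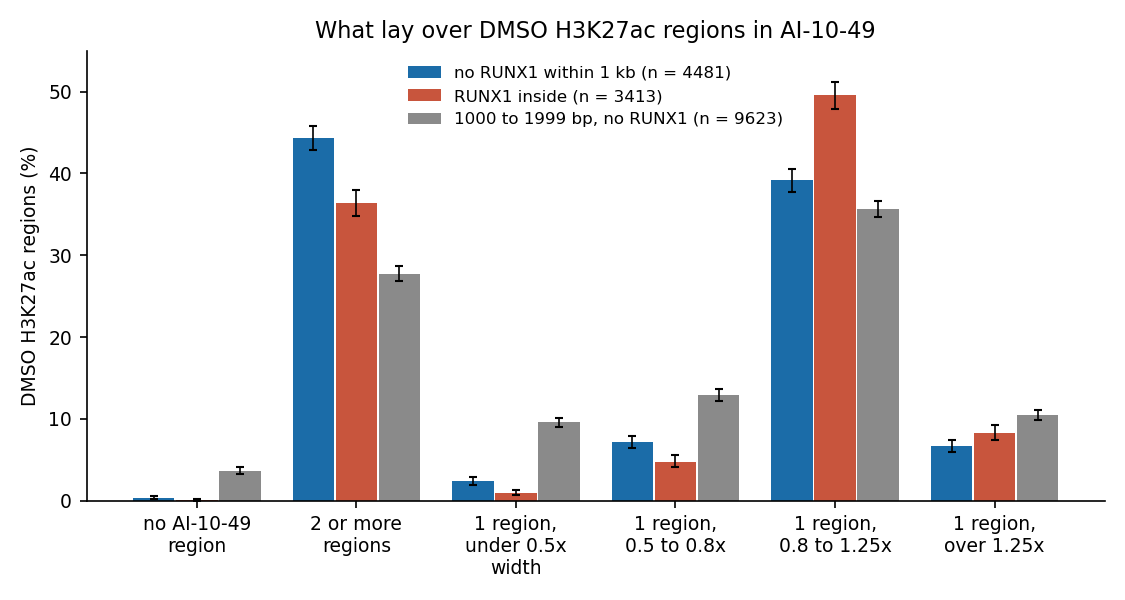
Bars give the percentage of DMSO H3K27ac regions in each class of AI-10-49 H3K27ac coverage (no region, 2 or more regions, or 1 region of the stated width relative to DMSO, with x for times), for broad regions without RUNX1 (n = 4481), broad regions with RUNX1 (n = 3413) and narrower regions without RUNX1 (n = 9623). Lines are exact 95% intervals, and the broad regions without RUNX1 stood at 44.3% in the class with 2 or more regions and at 39.1% in the class that kept its width, against 36.4% and 49.5% with RUNX1.

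The pieces lay close together. The 1986 divided regions held 2700 gaps, with a median length of 136 bp (quartiles 78 and 228), and 68.7% of gaps (66.9 to 70.4) were at most 200 bp. Over all divided DMSO regions the median was 126 bp and this share 73.1%, so short gaps were not particular to these regions. The shortest gap was 45 bp here and over all regions. In broad regions with RUNX1 the median gap was 118 bp, and 75.8% (73.6 to 77.9) were at most 200 bp. Gaps over 500 bp made up 6.48% (5.58 to 7.48) without RUNX1 and 3.74% (2.85 to 4.81) with it, against 4.34% over all DMSO regions. In 1815 of the 1986 divided regions (91.4%) no gap exceeded 500 bp. Once AI-10-49 regions were joined across gaps of up to 500 bp, 3.82% of the regions without RUNX1 were divided, and 1.70% of those with it.

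Most of the acetylated sequence that was missing after AI-10-49 lay at the outer edges, not in the gaps. The broad regions without RUNX1 spanned 12.5 Mb in DMSO, of which 84.8% lay in AI-10-49 regions. Edges made up 10.7% of the bases, gaps between pieces 4.18%, and regions with no AI-10-49 region 0.319%. With RUNX1 the span was 10.3 Mb, with 90.2% covered, 7.31% missing at edges and 2.47% in gaps. Per region, the median covered share was 90.5% (89.9 to 91.0) without RUNX1 and 94.2% (93.8 to 94.5) with it. At least 90% of the bases were covered in 2302 regions without RUNX1 (51.4%, 49.9 to 52.9) and in 65.2% (63.6 to 66.8) with it, against 32.4% of all DMSO regions. Without RUNX1 this share was 37.9% at 1000 bp and more and under 2000 bp, and 65.6% at 5000 bp and more. The contrast with all regions therefore partly follows the choice by width.

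**Figure D2:**
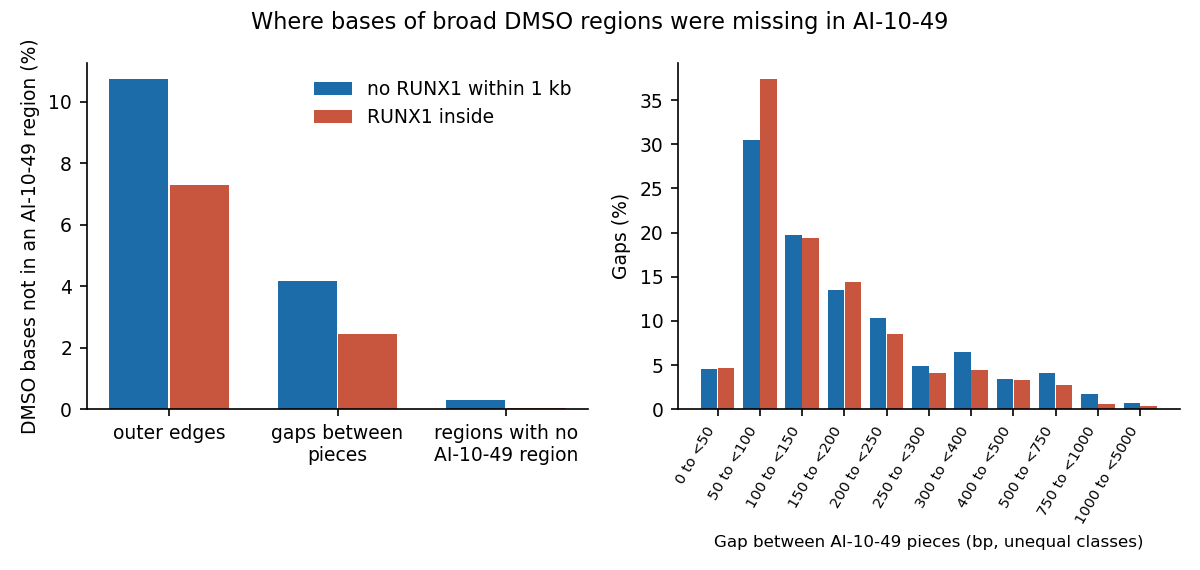
The left panel gives the percentage of DMSO bases of broad regions that lay in no AI-10-49 region, by place, and the right panel the percentage of gaps between AI-10-49 pieces in each class of length (bp, classes of unequal size), for regions without RUNX1 (12.5 Mb, 2700 gaps) and with RUNX1 (10.3 Mb, 1551 gaps). Outer edges hold more missing bases (10.7% and 7.31%) than gaps (4.18% and 2.47%) in both classes, and most gaps are shorter than 200 bp.

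The DMSO summit itself was seldom where acetylation was missing. It fell in a gap in 20 of the 4464 regions with an AI-10-49 region (0.448%, 0.274 to 0.691), and in 2 of 3411 with RUNX1. Over all DMSO regions with an AI-10-49 region the share was 0.851%. The AI-10-49 summit lay a median of 64.5 bp from the DMSO summit (quartiles 23 and 348) and within 500 bp in 81.2% (80.1 to 82.4). Over all DMSO regions the median was 79 bp and the share within 500 bp 85.2%, so a close summit was not particular to these regions. With RUNX1 the median was 47 bp and the share within 500 bp 84.1% (82.9 to 85.4). Within the region, the DMSO summit stood at a median of 50.0% of the width (quartiles 37.9 and 61.8). The median was 49.4% with RUNX1 and 49.2% over all DMSO regions, so this position was not particular to the regions without RUNX1.

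Summit levels, scaled only to the reads of each library, were lower in AI-10-49 in most of these regions. With 1 immunoprecipitation per condition, a difference in its enrichment cannot be told apart from a difference in acetylation. The median over the 4464 regions was 3.42 fragments per M reads without and 2.11 with AI-10-49 (quartiles 1.38 and 3.24), and the median of the ratios, AI-10-49 over DMSO, was 0.663 (0.656 to 0.670, quartiles 0.529 and 0.809). Over all 47607 DMSO regions with an AI-10-49 region the median ratio was 0.838, a contrast that was not found when the regions were chosen in the AI-10-49 list. The longer AI-10-49 fragments would raise a ratio by 1.09 times at equal occupancy, and divided by this the median was 0.607. Ratios under 0.5 were found in 897 regions (20.1%, 18.9 to 21.3), against 15.3% (14.1 to 16.6) with RUNX1 and 10% of all. Counting intervals of the 2 libraries did not meet, with AI-10-49 lower, in 2322 (52.0%, 50.5 to 53.5), against 23.7% of all, and with AI-10-49 higher in 63 (1.41%, 1.09 to 1.8), against 6.36% of all. Tall summits carry narrower counting intervals, so the larger share with intervals apart partly follows the height of these regions by construction. In broad regions with RUNX1, intervals were apart with AI-10-49 lower in 58.3% (56.6 to 59.9) and higher in 0.557% (0.336 to 0.868). Lower summits with intervals apart were thus not particular to regions without RUNX1.

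The ratio differed little between broad regions without and with RUNX1. With RUNX1 the median was 0.684 (0.677 to 0.693), so that regions without RUNX1 differed by -0.0206 (-0.0321 to -0.0108). The reference was not uniform. The 505 regions that held a RUNX1 peak in DMSO had a median of 0.637 (0.621 to 0.663), below the regions without RUNX1, and the 2908 in which RUNX1 was called only after AI-10-49 had 0.693 (0.684 to 0.704), above them. The covered share was 91.9% (90.7 to 93.0) where RUNX1 was called in DMSO and 94.5% (94.1 to 94.8) where it was called only after AI-10-49, both above the 90.5% of the regions without RUNX1. The order of the summit ratios without and with RUNX1 also turned if the fragment numbers were corrected for a possible upper limit. The sources used here do not give whether duplicate reads were removed. If they were, no more than 384 (DMSO) or 420 (AI-10-49) fragments could cover a summit, and the highest observed were 383 and 401. With a correction for this the medians were 0.597 (0.590 to 0.604) without and 0.588 (0.580 to 0.594) with RUNX1.

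**Figure D3:**
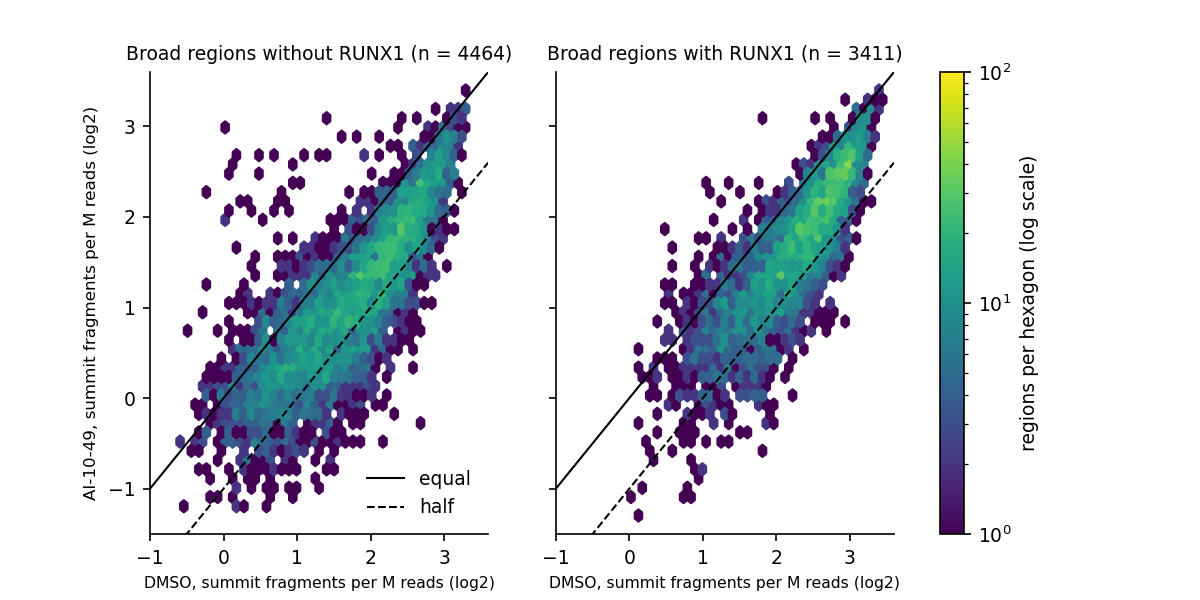
Each hexagon counts broad DMSO regions by summit fragments per M reads in DMSO (horizontal, log2) and in AI-10-49 (vertical, log2), without RUNX1 (left, n = 4464) and with RUNX1 (right, n = 3411), with lines for equal levels and for 0.5 times the DMSO level. Most regions of both classes lie between the lines (median ratios 0.663 and 0.684), and the points far above the equal line on the left are mostly regions whose AI-10-49 summit lay outside the DMSO region.

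Regions that were divided had been wider and lower in DMSO than those that stayed whole. Their median DMSO width was 2682 bp against 2502 bp, and their DMSO summit 2.93 against 3.75 fragments per M reads. The summit ratio was 0.619 in divided and 0.694 in whole regions. The share that was divided rose with width, from 38.6% (36.5 to 40.7) below 2500 bp to 43.0% (40.0 to 46.0) from there to under 3000 bp, 51.1% (47.9 to 54.3) to under 4000 bp and 60.9% (55.9 to 65.7) above. With RUNX1 the shares in the same classes were 28.6%, 35.3%, 41.5% and 45.7%, each below the interval of the regions without RUNX1. Among regions of 5000 bp and more without RUNX1, 69.8% (64.3 to 74.9) were divided.

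Part of the difference in division between the classes went with width and summit height. Regions without and with RUNX1 were placed in 4 joint classes of DMSO summit fragments. In the lowest class (23 to 92 fragments) 54.3% (51.8 to 56.8) without and 48.2% (43.3 to 53.1) with RUNX1 were divided. The 2 middle classes gave 44.0% against 42.3% and 38.7% against 35.8%, and in the highest (210 to 376) the shares were 30.5% (27.1 to 34.1) and 29.2% (26.7 to 31.8), with intervals that overlapped in all 4 classes. When the regions with RUNX1 were weighted to the same width and summit classes (16 combinations, the smallest with 22 regions), their share divided was 39.7%, and the difference fell from 7.96 to 4.61 percentage points. In 13 of the 16 combinations the regions without RUNX1 were divided more often, in 15 their median ratio was lower, and in 16 their mean covered share was lower.

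Coverage rose with summit height, whereas the uncorrected ratio was lowest in the middle classes. Without RUNX1, median covered shares in the 4 classes of summit fragments were 86.8%, 89.0%, 92.4% and 94.4%, and with RUNX1 they were 90.2%, 92.1%, 94.0% and 95.7%. Median summit ratios without RUNX1 were 0.736 (0.719 to 0.752) in the lowest class, 0.609 (0.591 to 0.622) and 0.617 (0.606 to 0.628) in the middle, and 0.704 (0.686 to 0.716) in the highest. With RUNX1 they were 0.755, 0.639, 0.656 and 0.713. After correction for the possible upper limit on fragments, the ratios from the lowest to the highest class were 0.714, 0.560, 0.537 and 0.566 without RUNX1, and 0.728, 0.591, 0.576 and 0.562 with it. The rise toward the highest class thus shrank without RUNX1 and was gone with it.

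**Figure D4:**
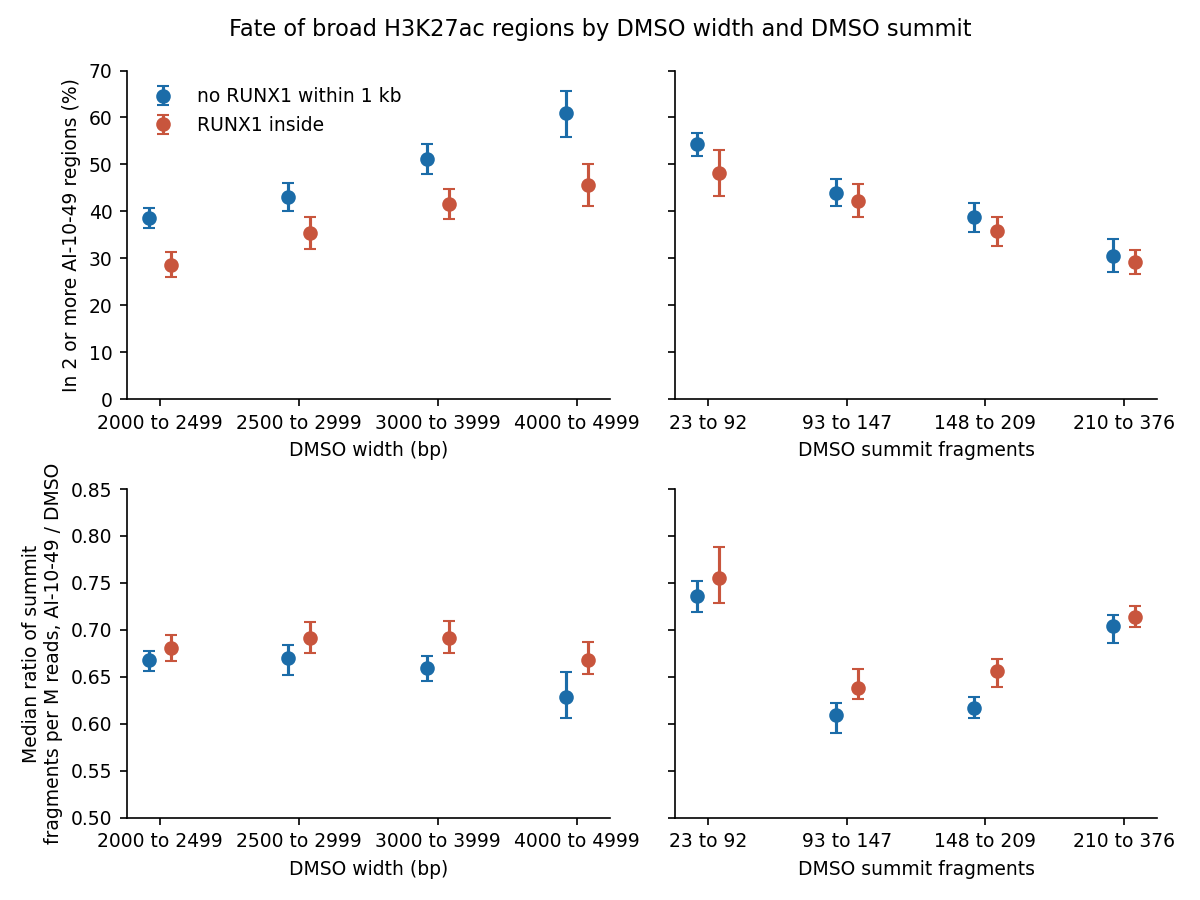
Upper panels give the percentage of broad regions overlapped by 2 or more AI-10-49 regions and lower panels the median AI-10-49 over DMSO ratio of summit fragments per M reads (axis not from 0), by DMSO width (left, bp) and DMSO summit fragments (right), without and with RUNX1, with exact 95% intervals. The share divided climbs from 38.6% to 60.9% with width and falls from 54.3% to 30.5% with summit fragments in regions without RUNX1.

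The same choice was made in the other direction, since choosing regions by width in 1 list favours high measurements in that list. The AI-10-49 list held 6474 regions of this width, of which 3453 lacked RUNX1 within 1 kb and 2927 overlapped it. Followed into DMSO, 2 of the 3453 had no DMSO region (0.0579%, 0.00701 to 0.209, against 21.0% of all AI-10-49 regions). Division into 2 or more DMSO regions was found in 949 (27.5%, 26.0 to 29.0, against 7.82% of all), fewer than the 44.3% in the first direction. The contrast in division with all regions again partly follows the choice by width, as all AI-10-49 regions had a median width of 522 bp. Median covered share was 95.4% (95.1 to 95.8), and at least 90% was covered in 68.4%, against 50.0% of all, where the part of width was not tested. The median DMSO over AI-10-49 ratio was 1.36 (1.34 to 1.38), which is 0.735 as AI-10-49 over DMSO. Over all 52448 AI-10-49 regions with a DMSO region the median was 1.39 (1.38 to 1.397), so in this direction the broad regions without RUNX1 did not differ more between conditions than all regions did. Lower AI-10-49 summits were thus found in both directions, with the median ratio between 0.663 and 0.735 depending on the list that chose the regions. The DMSO level was over 2 times the AI-10-49 level in 12.7% (22.9% of all) and under 0.5 times in 0.522% (0.686% of all). Counting intervals were apart with DMSO higher in 42.4% (35.8% of all) and with DMSO lower in 1.39% (0.614% of all). With RUNX1 the values in this direction were 19.8% divided, 97.1% covered and a ratio of 1.41, or 0.712, so the order of the ratios was the reverse of that in the first direction.

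At each limit of the choice, the values of 1 region on either side are given. The widest region just below 2000 bp had 4.99 fragments per M reads without and 2.14 with AI-10-49, and one of 2000 bp had 2.89 and 1.95. The widest region inside the upper limit had 1.82 and 1.22, and a region of 5000 bp, just too wide, had 4.29 and 1.87. The closest RUNX1 peak to any region was 1009 bp away, at a region with 1.06 and 1.05 fragments per M reads, and the region just excluded, at 997 bp, had 3.28 and 1.68.

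The regions without RUNX1 were also compared by their distance from it. The nearest RUNX1 peak was a median of 37.5 kb away (quartiles 12.5 and 101). The 472 regions with RUNX1 within 5 kb were divided in 45.3% of cases (40.8 to 50.0), had 91.7% of bases covered (89.9 to 93.1) and a summit ratio of 0.678 (0.661 to 0.708). The 1128 regions more than 100 kb from RUNX1 were divided in 47.1% (44.1 to 50.0), had 88.9% covered (87.7 to 89.8) and a ratio of 0.658 (0.641 to 0.671). Between these, from 5 to 20 kb and from 20 to 100 kb, the ratios were 0.661 and 0.663, the shares divided 45.3% (42.3 to 48.3) and 41.7% (39.4 to 44.0), and the covered shares 91.4% and 90.6%. All 4 intervals of the ratio overlapped. The covered share was lower in the farthest than in the nearest class, with intervals apart. The share divided had no order by distance, and its intervals were apart only between 20 to 100 kb and beyond 100 kb.

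Positions are 1-based in hg19 with the cytoband. An hg19 gene annotation and genome were not used here, so no region was assigned to a gene, promoter, exon or intron, no sequence is printed, and the cell type was not checked against its marker genes. Where a gene is given for a band, it was picked from general knowledge once the regions were known, out of the many genes a band holds, and the region need not lie at it.

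The broad regions without RUNX1 lay on 23 chromosomes and in 672 cytobands. By number, 19p13.3 led with 41 of its 91 broad regions, followed by 3p21.31 with 36 of 49, and by 17q11.2 and 16p13.3 with 33 each. In the 115 bands with at least 20 broad regions, the share without RUNX1 had a median of 55% and ranged from 23.8% to 84.6%. Light-staining bands, which are gene-rich, held 60.8% (59.3 to 62.2) of the regions, and 62.5% (60.8 to 64.1) of those with RUNX1. Of all DMSO regions these bands held 60.02%, which is inside the interval of the regions without RUNX1. A place in light-staining bands was therefore not particular to the regions without RUNX1. Another DMSO region lay within 1 kb of 59.5% (58.1 to 61.0) without and 56.0% (54.3 to 57.7) with RUNX1, both below the 64.1% of all DMSO regions.

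The medians of single chromosomes spread more widely than the medians of the classes with and without RUNX1, which rest on many more regions. A wider spread is expected from smaller numbers alone. No interval was computed for a chromosome, so the order of chromosomes is given as a description only. Over its 149 regions without RUNX1, chromosome 9 had the lowest median ratio (0.589), the highest share divided (58.4%) and the lowest covered share (84.2%) of the 23 chromosomes. Chromosomes 21 (0.591) and 17 (0.605) came next by ratio. Chromosome 12 had the highest ratio, 0.712 over 244 regions, and chromosome 11 the lowest share divided (36.1%) and the highest covered share (93.4%) over 249. The local background under the summit, recovered from the same peaks, had a median of 4 fragments on chromosome 9, 7 on chromosome 21, 6.53 on chromosome 17, 5.38 on chromosome 12 and 8.26 on chromosome 11. It was lowest on X (3.84), where the ratio was 0.647. Its part in these differences was not tested. Within each chromosome the number of regions was 82 to 464.

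Several of the tallest regions without RUNX1 stood about as high in both conditions. Among the 10 with the highest −log10 q in DMSO, 9 stayed whole and ratios ran from 0.616 to 0.994. A region in 22q12.2 (chr22:29662568-29666278), the band of EWSR1, which encodes an RNA-binding protein, had 9.47 fragments per M reads (8.49 to 10.5) with DMSO and 9.33 (8.37 to 10.4) with AI-10-49. One in 8p22 (chr8:17939706-17942610), the band of the acid ceramidase gene ASAH1, had 9.25 and 9.14. In 7p22.3 (chr7:2393215-2395928), the band of the translation initiation factor gene EIF3B, the levels were 9.19 and 9.14. Counting intervals of the 2 conditions overlapped almost wholly in these 3. A region in 11p13 (chr11:34071998-34075707), the band of CAPRIN1, a cell cycle-associated RNA-binding protein, had 8.91 and 8.16. All of these levels lie near the possible upper limit on fragments, where a change would be hard to see.

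Others of the 10 fell further. A region in 15q26.1 (chr15:93425874-93429098) had the highest −log10 q of all (402), with 8.43 (7.51 to 9.44) without and 6.30 (5.52 to 7.16) with AI-10-49. In 10p13 (chr10:15409320-15413698) the levels were 7.93 (7.03 to 8.91) and 5.19 (4.48 to 5.98), and the AI-10-49 region was 3830 bp wide where the DMSO region had 4379 bp. In 17q21.31 (chr17:44268773-44270873), 606 kb from the nearest RUNX1 peak, they were 8.69 (7.75 to 9.71) and 5.35 (4.63 to 6.15). Regions in 18p11.22 (8.07 and 6.81) and 8p12 (8.29 and 7.16) lay between these and the former 4. The only divided region of the 10 was in 22q11.21 (chr22:19465360-19467983), the band of the replication factor gene CDC45, where a gap of 50 bp separated 2 pieces and the summit had 8.43 and 8.11. For comparison, the 5 RUNX1-holding regions with the highest −log10 q had DMSO levels of 8.66 to 9.16 and ratios of 0.756 to 0.920.

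In the 5 regions with the lowest ratios, the AI-10-49 summit stood at 0.703 to 0.892 fragments per M reads. They were taken from 4065 regions with at least 50 DMSO summit fragments and an AI-10-49 summit inside the region. In 1p36.33 (chr1:1829970-1832016) the level was 6.28 (5.48 to 7.15) without and 0.838 (0.569 to 1.19) with AI-10-49, a ratio of 0.134, from 224 and 31 fragments. The AI-10-49 region covered 51.8% of it. In 22q11.23 (chr22:23725607-23728120), the band of the BCR gene, the levels were 4.51 (3.84 to 5.26) and 0.703 (0.459 to 1.03). In 8p21.1 (chr8:27467621-27470046), the band of the chaperone gene CLU (clusterin), they were 4.99 (4.28 to 5.78) and 0.892 (0.614 to 1.253), and an AI-10-49 region of 443 bp was left of 2426 bp. In 19q13.33 (chr19:49253835-49256517) they were 3.73 (3.12 to 4.42) and 0.703 (0.459 to 1.03), with 432 bp left of 2683 bp. In 17q25.3 (chr17:79449429-79452035), 1.19 kb from a RUNX1 peak, 3 pieces covered 28.0% and the levels were 3.47 (2.89 to 4.14) and 0.703 (0.459 to 1.03). There the AI-10-49 summit lay 1318 bp from the DMSO summit, so the levels are of different points in the region. In these 5 the counting intervals of the 2 libraries were far apart, which the choice of the lowest ratios favours by construction. As a group, the 897 regions with a ratio under 0.5 had a median covered share of 73.1%, and 56.2% of them were divided.

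A ratio above 1 was rarer. It was found in 411 regions (9.21%, 8.37 to 10.1), and in 6.68% (5.87 to 7.57) of those with RUNX1, against 35.6% of all DMSO regions with an AI-10-49 region. A ratio over 2 was found in 35 (0.784%, 0.547 to 1.09, against 6.68% of all). In 34 of these 35 the AI-10-49 summit lay outside the DMSO region, so that the ratio sets the summit of the DMSO region against one beside it, under an AI-10-49 region that reached past its end. The exception was in 6p21.33 (chr6:31781191-31783634), a band of many genes that include HSPA1A, a heat shock chaperone gene. There the level was 3.03 (2.48 to 3.65) without and 7.27 (6.43 to 8.20) with AI-10-49, a ratio of 2.40, with summits 9 bp apart and nearly equal widths (2444 and 2203 bp).

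The next 4 ratios, with the summit inside, were in regions of which AI-10-49 regions covered 93.9% to 100%. In 16q12.2 (chr16:53898246-53900286) the level was 1.93 (1.5 to 2.45) without and 3.43 (2.86 to 4.09) with AI-10-49. In 6p21.1 (chr6:44213548-44216846), a band that holds the heat shock chaperone gene HSP90AB1 among many others, it was 4.34 (3.69 to 5.08) and 7.08 (6.25 to 8), and the AI-10-49 region was wider (4611 against 3299 bp). In 19p13.3 (chr19:3150120-3153123), 1.93 kb from a RUNX1 peak, it was 1.63 (1.23 to 2.1) and 2.62 (2.13 to 3.20), at summits 901 bp apart. In 19q13.2 (chr19:42720640-42723214) it was 5.10 (4.39 to 5.90) and 8.16 (7.27 to 9.14). Counting intervals were apart in all 5 regions, with AI-10-49 higher, which the choice of the highest ratios favours by construction. Genes were named for only some of these bands, and no region was assigned to a gene, so no shared function can be read from them.

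The 5 regions in most pieces were 3470 to 4756 bp wide in DMSO. In 1p34.3 (chr1:35560358-35565047) a DMSO region of 4690 bp was overlapped by 6 AI-10-49 regions that covered 61.7% of it, with a largest gap of 463 bp and summit levels of 3.64 (3.04 to 4.33) and 1.97 (1.55 to 2.48). In 2q37.1 (chr2:234157429-234161374) 6 pieces covered 65.3% of 3946 bp, and the levels were 2.21 (1.75 to 2.76) and 1.05 (0.75 to 1.44). In 6p22.3 (chr6:15264346-15269040) 6 pieces still covered 88.1% of 4695 bp, with 2.63 and 1.57. Regions in 3p22.2 (chr3:37901141-37905896; 6.47 and 3.06) and 6p25.3 (chr6:1609328-1612797; 4.74 and 2.49) lay under 5 pieces each. The DMSO and AI-10-49 summits were 647 bp apart in 6p22.3 and 557 bp apart in 3p22.2. Ratios in the 5 ran from 0.472 to 0.595, below the median of 0.619 for all divided regions.

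**Figure D5:**
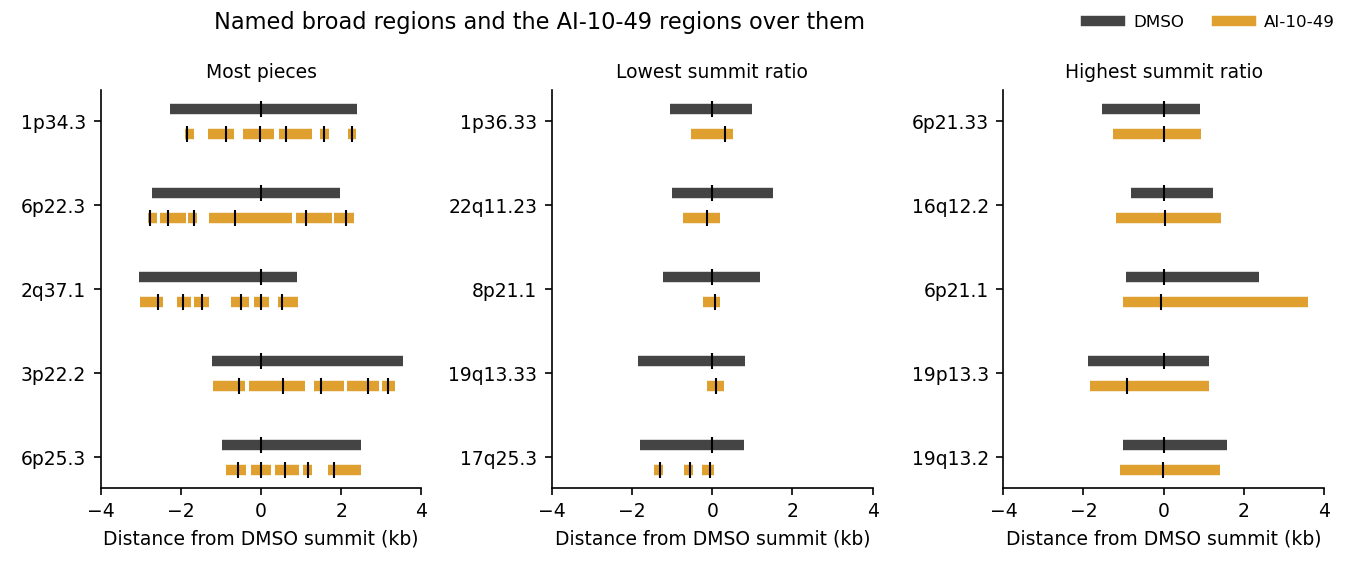
Named broad regions without RUNX1 are drawn to scale as distance from the DMSO summit (kb), with the DMSO region above and the AI-10-49 H3K27ac regions over it below and a tick at each summit, for the 5 in most pieces, the 5 with the lowest and the 5 with the highest summit ratio. The first group lies under 5 or 6 pieces, the second has 16.1% to 51.8% of its bases covered, and the third has 88.5% to 100%.

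Some regions became part of a much wider AI-10-49 region. In 802 (17.9%, 16.8 to 19.1) an overlapping AI-10-49 region also overlapped another DMSO region, near the 16.3% of all DMSO regions. In 144 of the 4481 (3.21%, 2.72 to 3.77) the widest overlapping AI-10-49 region reached 5000 bp or more, against 2.19% of all. With RUNX1 these shares were 19.3% (18.0 to 20.7) and 4.92% (4.22 to 5.70). The widest lay in 1q32.1, where chr1:206269125-206271275 fell at the end of an AI-10-49 region of 36574 bp. In 12q13.13, the band of the blood cell transcription factor gene NFE2, 2 regions (chr12:54685690-54688030 and chr12:54699868-54702091) came under 1 AI-10-49 region of 17067 bp that joined 5 DMSO regions. In these 3 and in 15q21.2 (chr15:50410375-50412718, AI-10-49 region of 16850 bp) the AI-10-49 summit lay outside, between 6714 and 13269 bp from the DMSO summit. In 17q11.2 (chr17:29634118-29638433), the band of NF1, which encodes a negative regulator of RAS, 7 DMSO regions were joined into 15565 bp, and the summit, 89 bp away, had 4.17 (3.53 to 4.90) without and 3.54 (2.96 to 4.20) with AI-10-49, with overlapping intervals.

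The 17 regions with no AI-10-49 region were among the weaker ones. Their DMSO summits held 26 to 106 fragments with a median of 52, against 122 over all regions without RUNX1, and 13 of the 17 were under 2500 bp wide. They lay on 11 chromosomes, and no RUNX1 peak was closer than 4.98 kb. The nearest AI-10-49 region was 0.031 to 55.1 kb away with a median of 3.91 kb, and 2 of the 17 had one within 1 kb. What an unlisted region held in AI-10-49 below the threshold of the peak caller cannot be read from a peak list, so no fold is given.

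By −log10 q the first of these was in 5q35.3 (chr5:180074827-180077412), the band of the receptor tyrosine kinase gene FLT4, with 2.75 fragments per M reads (2.23 to 3.35) in DMSO. The second, in 8p21.2 (chr8:25242034-25244165), had 2.72 (2.2 to 3.32). Both stood above the lower quartile of all regions without RUNX1 (2.16). A region in 1p31.1 (chr1:76518114-76520133) had 1.71 (1.31 to 2.2) and was 21.9 kb from the nearest AI-10-49 region. The widest of the 17, in 5q23.2 (chr5:126921589-126925272, 3684 bp), had 1.77 (1.36 to 2.26). The tallest by fragments, in 4p16.3 (chr4:27943-30066), had 2.97 (2.43 to 3.59) but a fold enrichment of only 4.85 over a high local background. In 14q32.33 (chr14:107176927-107179703), the band of the immunoglobulin heavy chain locus, the level was 1.46 (1.09 to 1.91), and in 12p13.31 (chr12:6313096-6315191), the band of the tetraspanin gene CD9, it was 1.54 (1.16 to 2.01). The remaining named regions were in 22q13.2 (1.85), 15q21.1 (1.48, with an AI-10-49 region 0.363 kb away) and 9q33.1 (1.26).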

How the data were processed

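The 4 H3K27ac and RUNX1 peak lists from ME-1 cells (1 library each, DMSO or AI-10-49) were used, of 6 libraries in all; groups came from the sample titles. Tools and build, per the submitters' processing notes, were MACS2 2.1.0, Bowtie2 2.1.0, Picard 1.96, SAMtools 1.3, CASAVA 1.4 and hg19, with no roles given. Whether duplicates were removed and which input entered each call are not given in the sources used here. The deposited ratio is the authors' fold enrichment at the summit over local background. For each summit the authors deposited a −log10 p and a −log10 q. The deposited score was not used.

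Summit fragments were recovered from fold enrichment and −log10 p, which together fix the count and its Poisson background (100% of peaks solved to within 0.003). In simulated peaks (2449 for DMSO, 2194 for AI-10-49) 100% were exact. Fragments per M reads are these counts over the recovered ChIP reads (genome size 2700000000 bp assumed). A region overlapping several AI-10-49 regions by at least 1 bp took the highest summit.

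The regions, classes and named-region rules were chosen with earlier results of these data known. Named regions were the 10 with the highest DMSO −log10 q, the 10 highest by −log10 q with no AI-10-49 region, the 5 in most pieces, the 5 lowest and 5 highest ratios (at least 50 DMSO fragments, summit inside), the 5 with the widest AI-10-49 region, and 5 with RUNX1. Alternatives changed widths, distances, thresholds, joining and list direction. Python 3.11.15, numpy 2.4.6, pandas 2.3.3, scipy 1.17.1, matplotlib 3.10.9, circlize 0.4.16 (cytobands) and bedtools 2.31.1 (check of overlaps) were used. Promoter share, nearest gene and marker genes were not analysed here.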

Additional observations from a re-analysis of the deposited data

How the results depend on the processing

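Of 106 alternative values, 60 stayed inside the interval of the main value, 42 moved and 4 turned direction. The corrections for an upper limit on fragments and the weighted reference were chosen after seeing the data. Values below are for regions without RUNX1, then the difference from regions with RUNX1. Where none is stated, the cause was not tested.

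The share with no AI-10-49 region (0.379%, 0.321 points) was 1.52% and 1.23 points with a −log10 q minimum of 5 for AI-10-49 regions, 1.07% and 0.957 with both lists joined across 500 bp, 0.0579% and 0.0579 in the mirror direction, and 0.0735% and 0.0735 from 3000 bp up.

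The share divided (44.3%, 7.96 points) was 3.82% and 2.12 with the AI-10-49 list joined across 500 bp, which removes most gaps by construction, 11.6% and 5.60 with both lists joined, 33.9% and 4.93 with that minimum, 41.0% and 3.37 with the DMSO RUNX1 list only, and 53.9% and 11.0 from 3000 bp up. It was 40.1% below 3000 bp, 27.5% in the mirror direction and 41.4% with at least 10% overlap of the region or 50% of the piece, and the difference from the weighted reference was 4.61.

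The covered share (90.5%, -3.66 points) was 95.1% and -1.998 with the AI-10-49 list joined, 89.3% and -4.43 with that minimum, 87.9% and -6.43 with both joined, 95.4% and -1.68 in the mirror direction, 92.2% and -2.48 from 3000 bp up, and 89.7% below 3000 bp. The weighted reference gave -2.24, and the DMSO RUNX1 list alone gave 92.3% and turned the difference to 0.384.

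The summit ratio (0.663, difference -0.0206) was 0.673 with the AI-10-49 list joined, 0.679 with both joined, 0.675 with the DMSO RUNX1 list only, 0.597 with the correction, 0.607 divided by the ratio of fragment lengths, 0.735 in the mirror direction and 0.653 from 3000 bp up, under 1 in each. Its difference turned to 0.0377 with the DMSO RUNX1 list only, 0.00835 with the correction and 0.0232 in the mirror direction, so no order of the 2 classes by summit ratio can be given. No paired analysis was possible because there was 1 library for each condition. The AI-10-49 list had the deeper ChIP library (37.0 M against 35.7 M reads) and the shallower input (27.6 M against 34.0 M), and the part of depth was not tested.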
